A study of Rattus norvegicus with 12 samples.

Results

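Genes of hepcidin and cellular iron handling were followed in rat heart: 8 of the 34322 genes in the count tables. They were taken by symbol (Hamp, Tfrc, Fth1, Ftl1, Slc40a1, Slc11a2, Ireb2 and Aco1), and the set was selected on the raw Hamp counts, which were near 0 at day 14. Hearts came from male Sprague-Dawley (SD) rats labelled WT, with a starting weight given in place of an age. The groups were sorafenib for 14 days, water for 14 days, sorafenib for 28 days and water for 28 days, with 3 libraries each and 12 in all. Sorafenib, a kinase inhibitor used against cancer, was given by gavage at 50 mg/kg per day, and the other groups received deionized water by the same route. RNA was depleted of ribosomal RNA and sequenced as pairs of 150-base reads. Nothing in the labels states that each library is its own animal, so the p-values below rest on the spread among libraries, which may be technical.

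Hepcidin is a small peptide hormone made mainly by the liver and, at lower level, by the heart. It binds ferroportin, the iron exporter, and causes its breakdown, which keeps iron inside the cell. Inside cells, iron regulatory proteins bind stem-loops in messenger RNAs: they protect the transcript of the transferrin receptor, which brings iron in, and block translation of ferritin, which stores it. Ferritin is therefore controlled largely after its RNA is made, and RNA levels do not measure ferritin protein.

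Total counts per library ranged from 13746366 to 18534816 at day 14. At day 28 they ranged from 16785038 to 26403196 in 5 libraries, while sorafenib day 28 replicate 3 held only 1036483, so that 1 count in it was worth 0.965 counts per 1000000 counts (CPM). Markers of cardiomyocytes were abundant in every library, with a summed level of 8 genes of 91258 to 192884 CPM. Water day 28 replicate 4 stood apart in liver markers. Its 12 hepatocyte markers summed to 102 CPM, of which albumin (Alb) gave 53.0 CPM, and none was at 0. In the other 11 libraries Alb was between 0 and 1.67 CPM, and 3 to 9 of the 12 markers were at 0.

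The promoters of Hamp and Tfrc, the members whose levels differed most between groups, are shown as the 250 bases before the annotated start, read from RefSeq on the assembly GRCr8. The Hamp window is chr1:95300272-95300521 on the minus strand and the Tfrc window is chr11:81690319-81690568 on the minus strand. Capitals mark GGCGCC, the core of the element through which BMP and SMAD proteins act on the hepcidin gene, TTCNNNGAA, the core bound by STAT proteins, and ACGTG, the core of the hypoxia response element.
Hamp: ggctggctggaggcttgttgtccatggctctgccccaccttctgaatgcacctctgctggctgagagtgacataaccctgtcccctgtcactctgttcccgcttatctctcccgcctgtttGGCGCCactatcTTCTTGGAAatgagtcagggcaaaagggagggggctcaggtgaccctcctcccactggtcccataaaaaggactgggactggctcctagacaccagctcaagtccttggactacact
Tfrc: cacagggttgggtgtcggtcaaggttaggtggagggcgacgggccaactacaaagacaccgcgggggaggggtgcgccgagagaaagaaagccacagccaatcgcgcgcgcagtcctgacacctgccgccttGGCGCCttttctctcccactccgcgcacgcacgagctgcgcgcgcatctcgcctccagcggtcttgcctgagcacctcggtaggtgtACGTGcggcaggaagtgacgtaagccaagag

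Both strands were searched. The Hamp window held GGCGCC 129 to 124 bases before the start and TTCTTGGAA 117 to 109 bases before it. The Tfrc window held GGCGCC 118 to 113 bases before the start and ACGTG 31 to 27 bases before it. Of 27457 rat promoter windows of the same length, 9.24% held GGCGCC, 7.52% held TTCNNNGAA and 16.9% held ACGTG. Both GGCGCC and TTCNNNGAA were present in 108 windows, or 0.393%. The ACGTG match did not overlap the GGCGCC match. These matches describe the letters of the windows and do not show binding. Of the 8 members, 6 are in the promoter table, and Fth1 and Ftl1 are not listed there.

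Hamp, which encodes hepcidin, was near 0 in water hearts at day 14, higher in sorafenib hearts at day 14, and higher still in both groups at day 28. On the mRatBN7.2 assembly it lies on chromosome 1 from 86170926 to 86172865, on the minus strand, with 360 exonic bases in 3 exons and no overlapping gene. Because its low day 14 level was part of the reason for choosing it, its values are described without a test.

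At day 14 the raw Hamp counts were 18, 25 and 25 in the sorafenib libraries (replicates 5, 6 and 7), against 4, 5 and 1 in the water libraries (replicates 2, 3 and 7). At day 28 they were 86, 7 and 102 in the sorafenib libraries (replicates 2, 3 and 4), against 114, 63 and 66 in the water libraries (replicates 2, 3 and 4). The count of 7 came from the shallow library and is not low for its depth: as a share of total counts it was 6.75 CPM, with a 95% Wilson interval of 3.27 to 13.9 CPM. The single count in water day 14 replicate 7 was 0.0544 CPM, with an interval of 0.00961 to 0.308 CPM. Such intervals cover counting error only, since the reads carried no molecular identifiers.

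With library sizes scaled by TMM, Hamp stood at 1.08, 1.44 and 1.51 CPM in sorafenib hearts at day 14, against 0.209, 0.254 and 0.0543 CPM in water hearts. All 3 sorafenib libraries lay above all 3 water libraries, and the means were 1.34 ± 0.231 CPM in sorafenib hearts and 0.172 ± 0.105 CPM in water hearts (SD, n = 3 each), a ratio of 7.79. Of the 18174 genes tested, 10.5% had all sorafenib libraries above all water libraries at day 14, and nothing is read from the separation for Hamp. The gene entered the tests at day 14 through its sorafenib libraries, since no water library held more than 5 counts.

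At day 28 Hamp was 4.95, 5.85 and 6.78 CPM in sorafenib hearts, against 5.60, 3.10 and 3.13 CPM in water hearts. The groups overlapped, with a ratio of means of 1.49 (5.86 ± 0.914 CPM with sorafenib and 3.94 ± 1.43 CPM with water, SD, n = 3 each). Between the days the level of every library at day 28 was above every library of the same treatment at day 14, as it was for 17.7% of all genes in water hearts and 10.9% in sorafenib hearts. The ratio of day 28 to day 14 means was 22.9 in water hearts and 4.36 in sorafenib hearts. These ratios share their groups with the ratios above.

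In the library with liver markers the Hamp level was 3.13 CPM, the middle value of the 3 water libraries of day 28. As a share of total counts it was the lowest of them, at 2.50 CPM against 2.81 and 5.49 CPM. The 5 other day 28 libraries, with Alb at 0.148 CPM or less, held 3.10 to 6.78 CPM of Hamp with TMM. Over all libraries the hepatocyte marker sum was 20.5 to 29.5 CPM in sorafenib hearts at day 14, against 16.8 to 23.6 CPM in water hearts at day 14. It was 16.3 to 20.2 CPM in sorafenib hearts at day 28, against 16.4 to 102 CPM in water hearts at day 28. Markers of atrial cardiomyocytes, 7 genes, summed to 67.5 to 245 CPM in sorafenib hearts at day 14 and 37.9 to 119 CPM in water hearts at day 14. At day 28 they summed to 159 to 347 CPM in sorafenib hearts and 44.6 to 344 CPM in water hearts. The parts of liver and atrial tissue in the Hamp level were not tested.

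**Figure D1:**
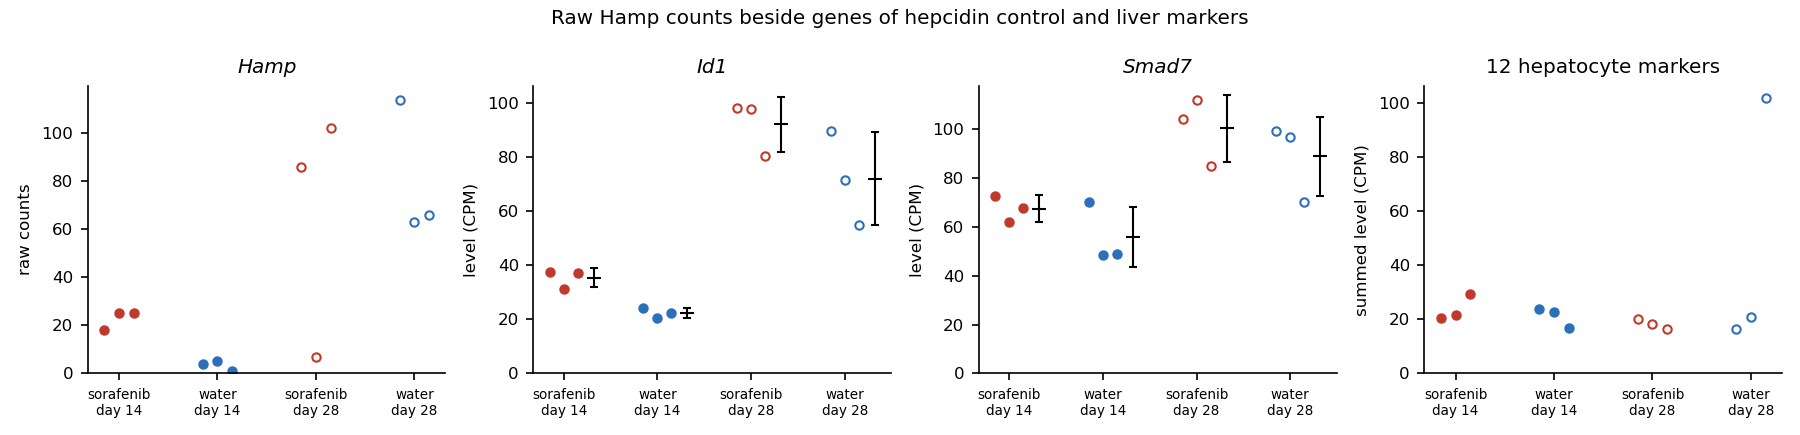
Each point is 1 library, filled at day 14 and open at day 28, in the order of its replicate number. The panels give raw Hamp counts, the levels of Id1 and Smad7 in CPM (bars, mean ± SD, n = 3) and the summed level of 12 hepatocyte markers in CPM. Raw Hamp counts were 5 or fewer in water hearts at day 14, and the low day 28 count of 7 belongs to the library with 1036483 counts. The marker sum of 102 CPM belongs to water day 28 replicate 4.

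Among the 5 genes whose pattern over the 12 libraries was most like that of Hamp were Rn7sl1, Id1, Mt1 and Mt2A. Likeness is the mean absolute difference of log2(CPM + 0.5), each gene taken relative to its own mean. It was 0.342 for Rn7sl1, the RNA of the signal recognition particle, and 0.430 for Id1, a target of BMP signalling. For the metallothioneins Mt1 and Mt2A, which bind zinc and copper, it was 0.484 and 0.485, against a median of 1.13 over 14127 genes. Hamp, Rn7sl1, Mt1 and Mt2A have 360, 299, 389 and 383 exonic bases, while the median of the genes compared is 3417. Any part of RNA length in this likeness was not tested. Over all genes under 1000 exonic bases the median fitted log2 fold change was 0.13 for sorafenib against water at day 14 and -0.038 for water day 28 against water day 14.

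Of the 7 members other than Hamp, edgeR called none in sorafenib against water at day 14 or at day 28. The share of all genes called was 0.0% at day 14, of 17406 tested, and 0.0% at day 28, of 17021 tested. At an unadjusted p under 0.05 there were 3 members at day 14 and 1 at day 28, among 2440 and 2531 genes. DESeq2 called none of the members on either day, among 438 genes called at day 14 and 279 at day 28. All 8 members passed the filter on low counts in every fit.

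Over the mean of both days, fitted on all 12 libraries and chosen after results of the single days were known, edgeR called none of the 7 members. Of 18174 genes it called 4.41%, 2.0% as higher and 2.41% as lower. Unadjusted p was under 0.05 for 2 members, Tfrc and Ireb2, among 4412 genes, and DESeq2 called 1, Tfrc. The median fitted log2 fold change was -0.25 over the 7 members and -0.0065 over all genes. For the difference of the sorafenib effect between the days, which was not tested for Hamp, edgeR called none of the 7 and 0.0% of all genes. Of the 7, none had an unadjusted p under 0.05, among 803 genes that did, and DESeq2 called none of the 7 and 9 genes. The lack of calls does not show that the effects were equal.

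Tfrc, the transferrin receptor that takes up iron-loaded transferrin, was high in 2 of the 3 water libraries of day 14 and lower in all 10 others. It lies on chromosome 11 from 68163413 to 68185257 on the minus strand, with 5413 exonic bases. At day 14 it was 71.3, 57.4 and 92.4 CPM in sorafenib hearts, against 70.3, 278 and 345 CPM in water hearts. Water day 14 replicate 2 thus lay inside the sorafenib range, and the groups overlapped. On day 28 Tfrc was 48.7, 45.2 and 63.9 CPM in sorafenib hearts, against 56.6, 115 and 72.2 CPM in water hearts, and the groups again overlapped.

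The fitted log2 fold change of Tfrc, sorafenib over water, was -1.64 ± 0.53 (SE) at day 14 (adjusted p = 0.259, edgeR) and -0.57 ± 0.25 at day 28 (adjusted p = 0.321). Neither passed the threshold of 0.05. For the mean of both days it was -1.13 ± 0.31, with an adjusted p of 0.0548. This result turned on the method and on 1 library. It passed with DESeq2 (adjusted p = 0.0324) and without water day 14 replicate 2 (adjusted p = 0.00794), and the adjusted p over all 18 alternatives ranged from 0.00794 to 0.162. Without that library the day 14 value was -2.08 (adjusted p = 0.0157). The difference of the effect between the days, 1.04 ± 0.61, did not pass (adjusted p = 0.999).

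The 5 genes most like Tfrc over the 12 libraries were Pde11a, Krt19, Cyp26b1, Cep41 and Cd24. Their mean absolute log2 differences ran from 0.318 for Pde11a to 0.399 for Cd24, against a median of 0.735 over 14127 genes. Pde11a is a phosphodiesterase, Krt19 an epithelial keratin and Cyp26b1 an enzyme that breaks down retinoic acid. Krt19 was 0.0606 to 0.300 CPM in sorafenib hearts at day 14, against 0.0522 to 3.05 CPM in water hearts at day 14. Pde11a, Krt19 and Cd24 were all low, at 3.05 CPM or less in every library, where the added 0.5 CPM compresses differences.

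Ferritin, the iron store, was the most abundant member pair. Fth1 encodes the heavy subunit, which oxidizes iron, and lies on chromosome 1 from 206627142 to 206629430 on the plus strand, with 828 exonic bases, of which 91 overlap Best1. Ftl1 encodes the light subunit, which helps the iron core form, and lies on chromosome 1 from 95936390 to 95938234 on the minus strand, with 913 exonic bases. Ferritin genes have near-identical copies elsewhere in the genome, and the handling of reads with several positions is not given in the sources used here, so their levels are uncertain.

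Fth1 was 349, 482 and 575 CPM in sorafenib hearts at day 14, against 541, 503 and 566 CPM in water hearts. In day 28 hearts Fth1 was 564, 370 and 815 CPM in sorafenib hearts, against 702, 854 and 1052 CPM in water hearts. The groups overlapped on both days. The log2 fold change was -0.19 ± 0.20 at day 14 (adjusted p = 0.686, edgeR) and -0.54 ± 0.28 at day 28 (adjusted p = 0.383), and -0.38 ± 0.19 for the mean of both days (adjusted p = 0.226).

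Ftl1 was 127, 113 and 92.4 CPM in sorafenib hearts at day 14, against 88.5, 78.4 and 84.1 CPM in water hearts. All 3 sorafenib libraries lay above the water libraries, as they did for 10.5% of all genes. The log2 fold change of 0.41 ± 0.15 did not pass (adjusted p = 0.265, edgeR). At day 28 Ftl1 was 178, 208 and 158 CPM in sorafenib hearts, against 150, 142 and 231 CPM in water hearts, and the groups overlapped (0.10 ± 0.22, adjusted p = 0.858).

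Per kilobase of exon (RPKM), the ratio of heavy to light ferritin RNA was 3.03, 4.71 and 6.86 in sorafenib hearts at day 14, against 6.74, 7.07 and 7.42 in water hearts. The day 28 ratio was 3.49, 1.96 and 5.69 in sorafenib hearts, against 5.17, 6.65 and 5.02 in water hearts. The ranges overlapped on both days, and no test was made of the ratio. The lowest ratio, 1.96, belongs to the shallow library.

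**Figure D2:**
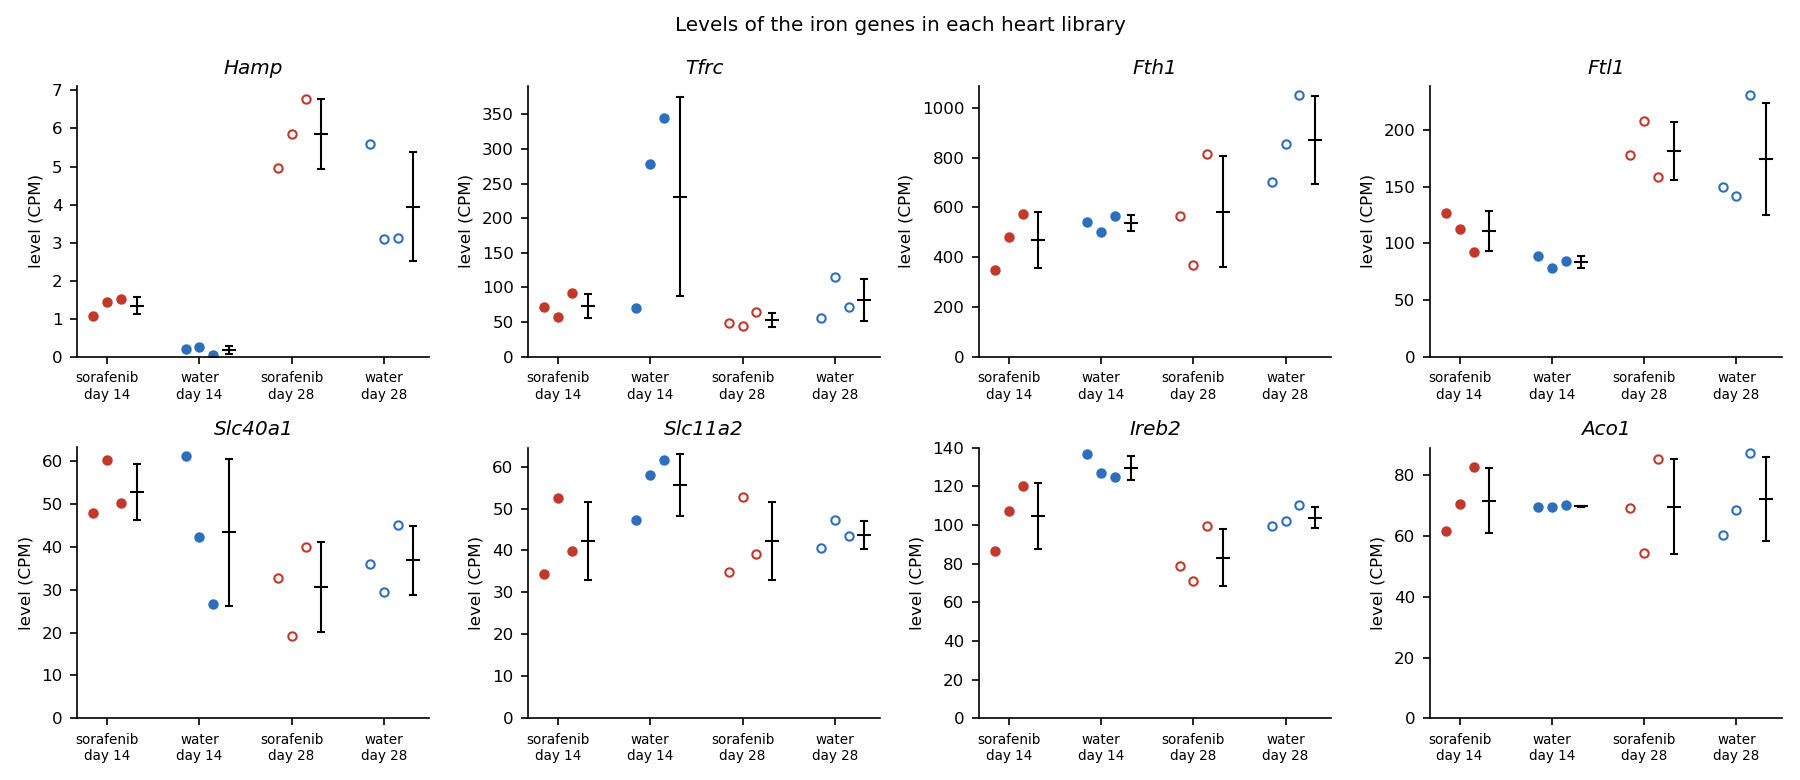
Each point is 1 library in CPM, filled at day 14 and open at day 28, in the order of its replicate number; black bars give the mean ± SD (n = 3). Tfrc is spread from 70.3 to 345 CPM in water hearts at day 14, and Aco1 stands at about the same level in all 4 groups.

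Slc40a1 encodes ferroportin, the exporter that hepcidin removes. It lies on chromosome 9 from 48033526 to 48053876, with 3432 exonic bases. It was 48.0, 60.2 and 50.3 CPM in sorafenib hearts at day 14, against 61.1, 42.3 and 26.8 CPM in water hearts. Ferroportin RNA at day 28 was 32.7, 19.2 and 39.9 CPM in sorafenib hearts, against 35.9, 29.4 and 45.2 CPM in water hearts. The groups overlapped on both days. Its log2 fold change was 0.29 ± 0.25 at day 14 (adjusted p = 0.630, edgeR), -0.16 ± 0.24 at day 28 (adjusted p = 0.768) and 0.050 ± 0.19 for the mean of both days (adjusted p = 0.902). RNA of ferroportin does not show its protein, on which hepcidin acts.

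Slc11a2 encodes DMT1, which moves ferrous iron out of endosomes into the cytosol. It lies on chromosome 7 from 131503076 to 131540246, with 5528 exonic bases, of which 288 overlap LOC120093735. It was 34.5, 52.5 and 40.0 CPM in sorafenib hearts at day 14, against 47.2, 58.1 and 61.5 CPM in water hearts. The day 28 levels were 34.9, 52.7 and 39.1 CPM in sorafenib hearts, against 40.7, 47.2 and 43.4 CPM in water hearts. The groups overlapped on both days, and the log2 fold change for the mean of both days was -0.25 ± 0.13 (adjusted p = 0.259, edgeR).

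The sensors of iron are the iron regulatory proteins. Ireb2 encodes IRP2, which is broken down when iron is plentiful, and lies on chromosome 8 from 55228080 to 55311613 with 5930 exonic bases. At day 14 it was 86.4, 107 and 120 CPM in sorafenib hearts, against 137, 127 and 125 CPM in water hearts. All sorafenib libraries lay below the water libraries, as they did for 10.3% of all genes. Ireb2 at day 28 was 78.7, 71.1 and 99.7 CPM in sorafenib hearts, against 99.3, 102 and 110 CPM in water hearts, where sorafenib replicate 4 fell just inside the water range. The log2 fold change was -0.30 ± 0.14 at day 14 (adjusted p = 0.386, edgeR), -0.27 ± 0.16 at day 28 (adjusted p = 0.428) and -0.31 ± 0.11 for the mean of both days (adjusted p = 0.115). Without sorafenib day 28 replicate 4 the mean of both days had an adjusted p of 0.0436, and over all 18 alternatives it ranged from 0.0436 to 0.739.

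Aco1 encodes cytosolic aconitase, which becomes IRP1 when it loses its iron-sulfur cluster. It lies on chromosome 5 from 55259841 to 55315872, with 3472 exonic bases. It averaged 71.7 ± 10.6 CPM in sorafenib hearts and 69.7 ± 0.291 CPM in water hearts at day 14, and 69.7 ± 15.6 CPM in sorafenib hearts and 72.1 ± 13.9 CPM in water hearts at day 28 (SD, n = 3 each). The log2 fold change for the mean of both days was 0.0096 ± 0.13 (adjusted p = 0.975, edgeR).

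**Figure D3:**
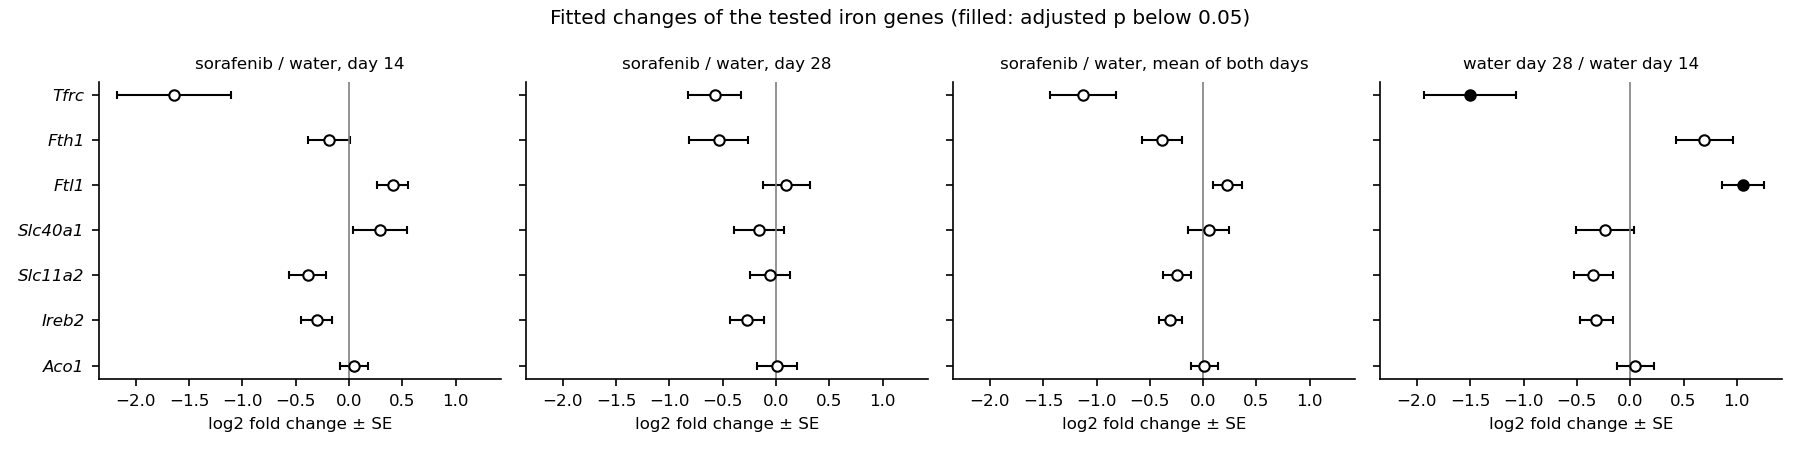
Fitted log2 fold changes ± SE of the 7 tested members, the group named first in each title over the one named after it; filled points have an adjusted p below 0.05 in edgeR. Only Tfrc (-1.50) and Ftl1 (1.06) in water day 28 against water day 14 are filled.

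Levels of different genes can be compared only per length. In water hearts at day 14 the mean RPKM was 648 ± 38.7 for Fth1, 91.6 ± 5.56 for Ftl1, 42.7 ± 26.4 for Tfrc, 21.8 ± 1.06 for Ireb2 and 20.1 ± 0.0838 for Aco1 (SD, n = 3). It was 12.6 ± 5.01 for Slc40a1, 10.1 ± 1.35 for Slc11a2 and 0.479 ± 0.291 for Hamp. Tfrc overlapped Ireb2 and Aco1 in this order because water day 14 replicate 2 lay below both, and Slc40a1 and Slc11a2 lay within their spread. At day 28 Hamp reached 16.3 ± 2.54 RPKM in sorafenib hearts and 10.95 ± 3.98 RPKM in water hearts, while Slc40a1 was 8.92 ± 3.06 RPKM with sorafenib and 10.7 ± 2.32 RPKM with water. Every Hamp library lay above every Slc40a1 library in sorafenib hearts at day 28, and the 2 genes overlapped in water hearts.

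**Figure D4:**
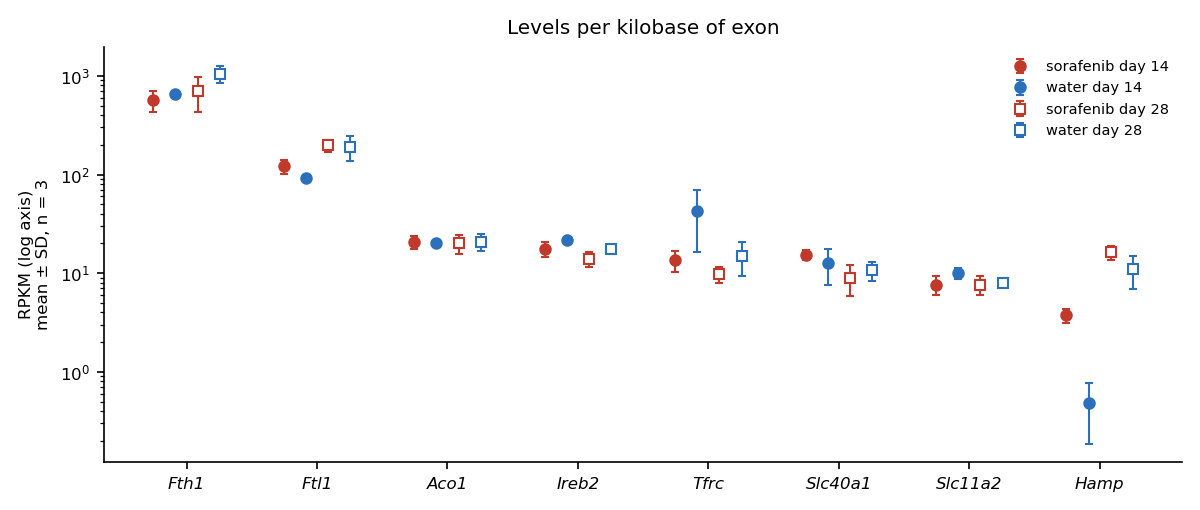
Mean RPKM ± SD (n = 3) of each member in the 4 groups, on a log axis; red is sorafenib, blue is water, circles are day 14 and squares day 28. Hamp goes down to 0.479 RPKM in water hearts at day 14, while the other members stay within a narrower range.

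Water hearts themselves differed between the days, and collection day cannot be told apart from the age of the rats or any difference in handling and sequencing. edgeR called 2 of the 7 tested members, Ftl1 higher and Tfrc lower at day 28, where it called 8.51% of all 18174 genes, 5.8% as higher and 2.7% as lower. Ftl1 was 150, 142 and 231 CPM in water hearts at day 28, against 88.5, 78.4 and 84.1 CPM in water hearts at day 14. Its log2 fold change was 1.06 ± 0.19 (adjusted p = 0.00513), and it passed in all 18 alternatives. Day 28 libraries of water lay above all those of day 14 for Ftl1 and also for Fth1, as for 17.7% of all genes.

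Fth1 had a log2 fold change of 0.70 ± 0.27 between the water groups that did not pass (adjusted p = 0.123, edgeR). Tfrc was 56.6, 115 and 72.2 CPM in water hearts at day 28, against 70.3, 278 and 345 CPM in water hearts at day 14, and these ranges overlapped. Its log2 fold change was -1.50 ± 0.43 (adjusted p = 0.0475), and it passed in 4 of 18 alternatives, with adjusted p from 0.00367 to 0.180. It was lost in every fit that left out 1 library other than water day 14 replicate 2. Ireb2 lay lower in all day 28 water libraries than in those of day 14, as 16.1% of all genes did, and its value of -0.32 ± 0.16 did not pass (adjusted p = 0.226). Slc40a1, Slc11a2 and Aco1 did not pass either, at -0.24 ± 0.27, -0.34 ± 0.18 and 0.049 ± 0.18.

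Of 8 cardiomyocyte markers, edgeR called 2 higher in water hearts at day 28 against day 14, where it called 5.8% of all genes higher. All 8 had a positive fitted change, with a median of 0.58 on the log2 scale. Erythroid markers, 10 genes, summed to 1634 to 2534 CPM in water hearts at day 28, against 937 to 1415 CPM in water hearts at day 14. Of single genes, 17.7% had all day 28 water libraries above those of day 14. The part of cardiomyocytes and erythroid cells in the change of Ftl1 was not tested. In bulk tissue, a different number of cells of a type and a different amount of RNA per cell cannot be told apart.

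Beyond the 8 members, 112 other genes of iron metabolism were grouped in 6 lists, of which 105 were tested in the fit of all groups. Over the mean of both days edgeR called 1 of them, 0.952%, against 4.41% of all genes. Their median log2 fold change was -0.14, against -0.0065 over all genes, unadjusted p was under 0.05 for 24 of them, and DESeq2 called 7. At day 14 and at day 28 edgeR called none of 104 tested on each day, with 7 and 14 genes at an unadjusted p under 0.05, and DESeq2 called 1 at day 14 and none at day 28. Between the water groups edgeR called 10 of 105, or 9.52%, all of them higher. Of all genes it called 8.51%, and 5.8% as higher. The count is not read as a result about iron genes.

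The gene called over the mean of both days was Id1, of the hepcidin control list (1 of 27 tested). Id1, a transcriptional target of the BMP pathway that also drives hepcidin in liver, was 37.6, 31.3 and 37.1 CPM in sorafenib hearts at day 14, against 24.2, 20.4 and 22.3 CPM in water hearts. At day 28 it was 98.2, 97.8 and 80.6 CPM in sorafenib hearts, against 89.7, 71.6 and 55.0 CPM in water hearts. The groups were apart at day 14, with sorafenib above water as for 10.5% of all genes, and overlapped at day 28. Its log2 fold change was 0.51 ± 0.12 (adjusted p = 0.0379, edgeR), and it passed in 7 of 18 alternatives, with adjusted p from 0.00638 to 0.217.

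Other genes of hepcidin control did not pass in edgeR over the mean of both days. Of the 27 tested, 9 had a positive and 18 a negative fitted change, with a median of -0.069. Unadjusted p was under 0.05 for 8, and DESeq2 called 3. Among the negative ones were Hfe at -0.94 ± 0.34 and Acvr1 at -0.30 ± 0.10 (adjusted p = 0.113 and 0.0968, edgeR). Atoh8, a transcription factor induced by BMP signals, had 0.59 ± 0.17 (adjusted p = 0.0591, edgeR), and the inhibitory SMAD gene Smad7 had 0.22 ± 0.13 (adjusted p = 0.313). Bmp6, the ligand that signals iron load in liver, was 20.7 ± 2.32 CPM in sorafenib hearts and 17.9 ± 1.77 CPM in water hearts at day 14, and 17.5 ± 2.32 CPM in sorafenib hearts and 24.6 ± 5.27 CPM in water hearts at day 28 (SD, n = 3 each). Il6, the cytokine that induces hepcidin through STAT3, had 0 to 3 counts per library at day 14 with sorafenib and 0 to 1 with water. At day 28 it had 5, 0 and 25 counts with sorafenib (replicates 2, 3 and 4) and 0 to 3 with water. The 25 counts were in 1 library, and the 0 came from the shallow library.

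In water hearts of day 28 against day 14, Id1 rose by 1.69 ± 0.18 on the log2 scale (adjusted p = 0.00022, edgeR; passed in all 18 alternatives). Smad7 rose by 0.67 ± 0.18 (adjusted p = 0.0355, passed in 13 of 18). These were the 2 of 27 hepcidin control genes called in this contrast, where edgeR called 8.51% of all genes, 5.8% as higher. The count is not read as a result about these genes.

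Of the list of uptake and intracellular iron, none of 21 tested genes was called over the mean of both days, while 5 had an unadjusted p under 0.05, DESeq2 called 3, and 17 had a negative fitted change with a median of -0.21. Steap4, a reductase of ferric iron, had -0.43 ± 0.12 (adjusted p = 0.0584, edgeR), and Snx3, a sorting protein for the transferrin receptor, had -0.42 ± 0.12 (adjusted p = 0.0612). In water hearts of day 28 against day 14, 1 of 21 rose: Lcn2, which binds iron-carrying siderophores, by 1.05 ± 0.29 (adjusted p = 0.0381). Lcn2 passed in 8 of 18 alternatives.

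Macrophages recycle haem iron and carry several of these genes. Of 11 tested macrophage markers, all 11 had a negative fitted change over the mean of both days, with a median of -0.70. edgeR called 3 of them lower, where it called 2.41% of all genes lower. It also called lower 2 of 7 endothelial, 1 of 7 fibroblast and 1 of 6 atrial markers, and 0 of 8 cardiomyocyte and 0 of 9 erythroid markers. The macrophage markers summed to 82.4 to 204 CPM in sorafenib hearts at day 14, against 164 to 298 CPM in water hearts. At day 28 they summed to 111 to 288 CPM in sorafenib hearts, against 236 to 341 CPM in water hearts. The part of macrophages in the values of Slc40a1, Fth1 and the uptake list was not tested.

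None of 5 tested genes of iron export and ferroxidases was called by edgeR in either contrast. Over the mean of both days 1 had an unadjusted p under 0.05 and DESeq2 called none, and between the water groups 2 had an unadjusted p under 0.05 and DESeq2 called 1. Abcg2, a transporter of haem and other compounds, had 0.72 ± 0.25 (adjusted p = 0.107, edgeR) over the mean of both days. Slc48a1, which moves haem out of lysosomes, had -0.22 ± 0.12 (adjusted p = 0.262).

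A list of 14 genes was named for IRP control and other transcripts with an iron-responsive element. Whether each rat transcript carries the element was not checked. Over the mean of both days edgeR and DESeq2 called none of the 14, and 2 had an unadjusted p under 0.05. The values nearest the threshold were those of Ciao2a, a factor that matures iron-sulfur proteins, at -0.45 ± 0.16 (adjusted p = 0.113), and Skp1, a subunit of the ligase complex that degrades IRP2, at -0.37 ± 0.17 (adjusted p = 0.201). In water hearts of day 28 against day 14, 2 of the 14 rose, where edgeR called 5.8% of all genes higher. Sdhb, the iron-sulfur subunit of succinate dehydrogenase, rose by 1.07 ± 0.23 (adjusted p = 0.0123), and Epas1, which encodes HIF-2 alpha, rose by 0.64 ± 0.18 (adjusted p = 0.0428).

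Of 24 tested genes of mitochondrial iron and iron-sulfur assembly, none was called over the mean of both days, where 18 had a negative fitted change with a median of -0.18. Unadjusted p was under 0.05 for 5, and DESeq2 called none. Bola3, a late factor of cluster transfer, had -0.40 ± 0.13 (adjusted p = 0.0973, edgeR).

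In water hearts of day 28 against day 14, 4 of these 24 rose, where edgeR called 5.8% of all genes higher. Among the 4 were the ferredoxins Fdx1 (0.80 ± 0.22) and Fdx2 (0.94 ± 0.26) and the scaffold gene Iscu (0.71 ± 0.19), with adjusted p of 0.0355, 0.0361 and 0.0367 (edgeR). Fdx1, Fdx2 and Iscu passed in 12, 9 and 10 of 18 alternatives. This list's median in that contrast was 0.31, against -0.040 over all genes.

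Of 14 genes of haem synthesis and breakdown, none was called over the mean of both days and 13 had a negative fitted change, with a median of -0.20. Unadjusted p was under 0.05 for 3, and DESeq2 called 1. Alas1, the first and controlling enzyme of haem synthesis outside red cells, was 118, 198 and 243 CPM in sorafenib hearts at day 14, against 183, 357 and 357 CPM in water hearts. Alas1 at day 28 was 193, 184 and 287 CPM in sorafenib hearts, against 262, 368 and 384 CPM in water hearts. The ranges overlapped on both days, and the change of -0.64 ± 0.21 did not pass (adjusted p = 0.0889, edgeR). It passed in 2 of 18 alternatives.

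The exception in direction was Hmox1, the inducible enzyme that breaks haem down and frees its iron. It was 16.4, 8.85 and 10.6 CPM in sorafenib hearts at day 14, against 13.9, 6.72 and 3.85 CPM in water hearts, and these ranges overlapped. At day 28 it was 36.9, 41.0 and 25.3 CPM in sorafenib hearts, against 17.8, 13.4 and 23.1 CPM in water hearts, where all sorafenib libraries were above the water libraries, as for 9.81% of all genes. The mean of both days was 0.72 ± 0.27 (adjusted p = 0.121), passed in 1 of 18 alternatives. Blvrb, which reduces biliverdin, rose in water hearts of day 28 against day 14 by 0.71 ± 0.20 (adjusted p = 0.0391, passed in 10 of 18), the 1 of 14 called there.

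**Figure D5:**
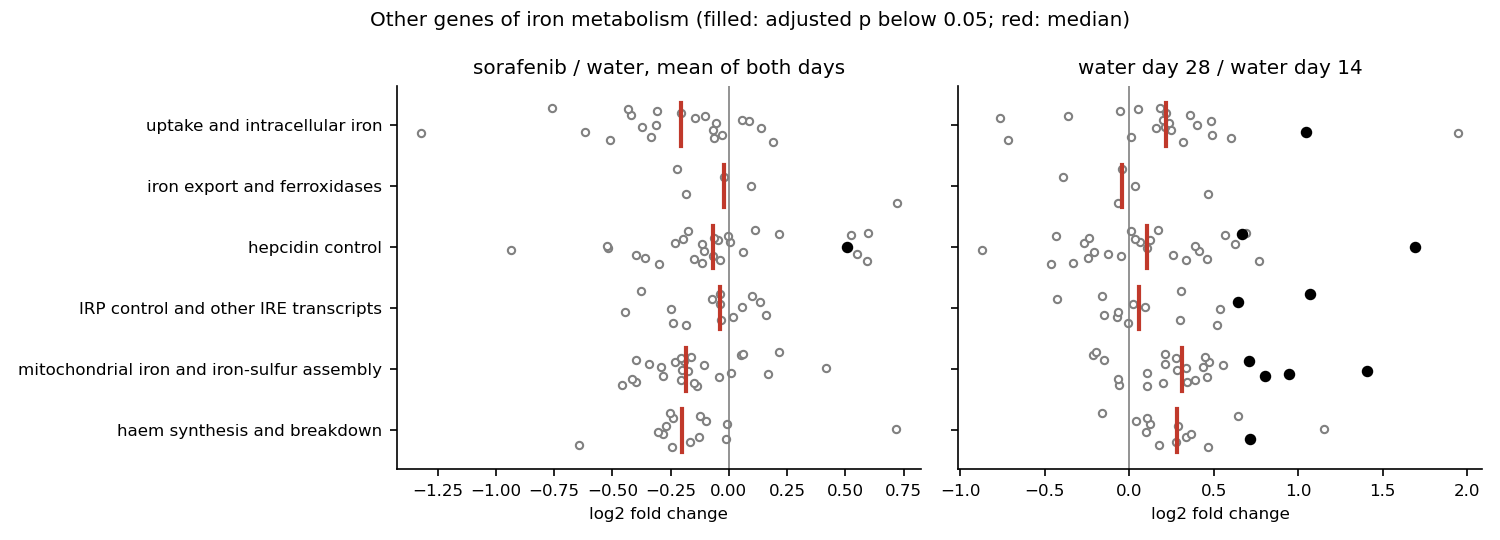
Each point is 1 gene of the 6 lists, by its fitted log2 fold change; filled points have an adjusted p below 0.05 in edgeR and the red line is the list's median. In sorafenib against water over the mean of both days only Id1 is filled. In water day 28 against water day 14 all 10 filled genes are higher, 9.52% of the 105 tested. Of all genes 8.51% were called there, 5.8% as higher.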

How the data were processed

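The values are counts of reads per gene, deposited in 1 table for each day. Per the file headers, the authors ran featureCounts 2.0.1 in paired mode against the RefSeq genes of mRatBN7.2 and did not use strand, so a gene cannot be separated from an overlapping or antisense partner. STAR is named without a version in the submitters' processing notes. Groups came from the labels, and 2 count columns that match no sample were not used.

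The main test was that of edgeR 4.0.16, run in R 4.3.3 (quasi-likelihood, robust, filterByExpr, TMM) with a Benjamini-Hochberg adjusted p below 0.05 over all genes, within each day or in a fit of all 4 groups. Each SE was obtained from the log2 fold change and its F statistic (change over root F). The smallest chi-square per gene between libraries of a group was 7.50, so none agreed within sampling noise. CPM uses TMM library sizes over all 12 libraries, and RPKM is CPM per kilobase of exon. Code was tested on simulated data.

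Members and lists were chosen with earlier results of these data known. The rule named all members, each listed gene past the threshold in any comparison, the 2 listed genes per list of smallest p over the mean of both days, and the 5 genes most like Hamp and most like Tfrc. A few genes that the rule named are not reported here. Levels of Bmp6 and Il6 were added after their values were seen. Hfe and Acvr1 were not named by the rule either. The settings tried besides were RLE factors, no filter, a filter of 1 CPM in 3 libraries, DESeq2 1.42.0, a fit of all groups, the replicate number as a block, each library left out, total counts in place of TMM for Hamp, and, added after seeing the data, removal of the trend with gene length (lowess span 0.3).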

Additional observations from a re-analysis of the deposited data

How the results depend on the processing

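The number of the 7 members called stayed at 0 in sorafenib against water at day 28 and in the difference between days, under every alternative run. Leaving out 1 library moved it between 0 and 1 at day 14 (Tfrc without water day 14 replicate 2), between 0 and 1 for the mean of both days (Tfrc without that library, Ireb2 without sorafenib day 28 replicate 4) and between 1 and 2 in water day 28 against day 14. It was 1 for the mean of both days with DESeq2, and 1 between the water groups with no filter and with the length trend removed, where Tfrc was lost. The log2 ratio of mean Hamp levels with 1 library left out was 2.54 to 3.35 at day 14 (sorafenib over water), 0.43 to 0.91 at day 28, 4.09 to 4.91 for water day 28 over day 14, and 1.99 to 2.23 for sorafenib day 28 over day 14.

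Whether the numbers of the labels pair the libraries was not settled. At day 28 same-numbered libraries correlated at 0.115, 0.00238 and 0.163, against -0.161 to 0.0504 for libraries of unlike number. With the replicate block Ftl1, Fth1 and Slc40a1 passed between the water groups (Fth1 adjusted p = 0.047, Slc40a1 adjusted p = 0.0229, edgeR). Tfrc did not (-0.79, adjusted p = 0.113, edgeR). Only numbers 2 and 3 occur in both water groups, so 2 libraries per group set these values. Water day 14 replicate 7, the highest in Tfrc at 345 CPM, carried no weight in them. Slc40a1 passed in no other of the 18 alternatives between the water groups. Its log2 fold change ranged from -0.64 to 0.0857 over them. No paired analysis was possible at day 14 because the groups share only 1 number. Over all genes the block gave 108 calls at day 28 and 2171 between the water groups, against 0 and 1546 without it. Without the block the mean had 801 calls and the difference 0. With it their day 14 effect rested on 1 pair, replicate 7, so those calls are not given. The block fits of the mean, the difference and the water groups rest on fewer libraries than the main fits. They are among the 18 alternatives. Without 1 library, calls over all genes were 0 to 27 at day 14, 0 to 3 at day 28, 35 (without sorafenib day 28 replicate 2) to 1562 (without sorafenib day 28 replicate 4) for the mean, 0 to 1 for the difference and 558 (without water day 14 replicate 3) to 1812 between the water groups. No filter gave 87 at day 14 and 82 at day 28, the fit of all groups 4 and 53, and the length trend removed 5 at day 28. DESeq2 gave 1836 for the mean and 2332 between the water groups.

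Signs turned only for small log2 values: Aco1 at day 28 (-0.0149 with no filter, -0.0205 in the fit of all groups, -0.000132 with the replicate block), Ireb2 in the difference (-0.27 with the block, -0.0315 with the length trend removed) and Aco1 between the water groups (-0.11 with the block). With 1 library left out the ranges that crossed 0 were -0.0739 to 0.14 (Aco1, day 14), -0.0336 to 0.34 (Ftl1, day 28), -0.35 to 0.0158 (Slc40a1, day 28), -0.23 to 0.0582 (Slc11a2, day 28), -0.14 to 0.17 (Aco1, day 28), -0.0684 to 0.24 (Slc40a1, mean), -0.0813 to 0.0905 (Aco1, mean), -0.16 to 0.11 (Ireb2, difference), -0.24 to 0.10 (Aco1, difference), -0.50 to 0.0857 (Slc40a1, water) and -0.11 to 0.17 (Aco1, water). The causes were not tested. The library of 1036483 counts limits Hamp at day 28.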
